A study of Homo sapiens with 4 samples.

Results

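The small family of EMP1, EMP2, EMP3 and PMP22 was followed in FT190 cells after knockdown of SMARCA4, an ATPase that drives SWI/SNF (BAF) chromatin remodellers. Its 4 genes were found by symbol among the 63241 genes of a raw count table, and all 4 passed the filter on low counts. The family was chosen by the CPM of EMP1 in shSMARCA4 and control libraries (counts scaled to a library of 1e+06), which differed strongly and with little spread, so the values of EMP1 are given as a description, with no test. EMP2, EMP3 and PMP22 were taken as its relatives.

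FT190 is a human line that the labels call ovarian epithelial and that is known as an immortalised line of fallopian tube secretory epithelium. The shSMARCA4 group held 2 libraries from cells expressing 1 hairpin against SMARCA4 (treatment SMARCA4_sh1). The control group held 2 libraries from cells with the PLKO vector. The labels give all 4 samples the genotype WT, and they leave unsaid whether replicates were separate cultures, so the spread behind each p-value is that between libraries and may be technical. With 1 hairpin in 1 line, effects of the hairpin on other targets cannot be told apart from those of SMARCA4. Total counts were 28536665 and 27137414 in shSMARCA4 libraries and 33641343 and 32618516 in controls. SMARCA4 stood at 34 and 36.3 CPM in shSMARCA4 libraries and 171 and 162 CPM in controls. Of 8 epithelial markers, KRT7, KRT8, KRT18 and PAX8 were all above 50 CPM in every library, EPCAM lay below 1 CPM and KRT19 had 0 to 5 counts. The markers summed to 1275 and 1282 CPM in shSMARCA4 libraries and 1813 and 1743 CPM in controls, and their part in the results below was not tested. Of the epithelial markers tested, 4 of 7 fell (median log2 fold change -0.44), where 15.8% of all genes tested fell. Of 9 fibroblast and smooth muscle markers, all 6 tested fell too, with a median of -1.26, from CNN1 at -2.39 to COL1A1 at -0.31. Their sum, 1814 and 1956 CPM in shSMARCA4 libraries and 2541 and 2584 CPM in controls, was mostly COL1A1, and their part in the results was not tested either. In such bulk libraries fewer cells of a type and less RNA per cell cannot be told apart.

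These proteins span the membrane several times and share the fold of claudins, with a glycosylated extracellular loop and short cytoplasmic ends. PMP22 is best known from Schwann cells, where it is a component of compact myelin and where an extra copy of the gene causes an inherited neuropathy. The epithelial membrane proteins are expressed in many epithelia and have been tied to adhesion, integrin display at the surface, cell blebbing and tumour growth.

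The members differ in the DNA before their starts, and the stretches of 3 of them are shown to let a reader compare their base composition. Whether these sequences bear on the levels below was not tested. The sequences come from RefSeq (GRCh38.p14, the same chromosomes as hg38), where all 4 members had an entry. Capitals mark matches to the AP-1 pattern TGANTCA and to the GC box GGGCGG, searched on both strands. Each run is read 5′ to 3′ and ends before the first base that lies in an annotated exon of the gene.
EMP1, chr12:13196476-13196715, plus strand: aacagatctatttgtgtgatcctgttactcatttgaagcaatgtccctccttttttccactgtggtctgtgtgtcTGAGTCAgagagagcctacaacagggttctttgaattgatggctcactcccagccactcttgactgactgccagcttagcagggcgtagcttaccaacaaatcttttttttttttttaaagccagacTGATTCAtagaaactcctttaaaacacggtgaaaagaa
EMP2, chr16:10580699-10580848, minus strand: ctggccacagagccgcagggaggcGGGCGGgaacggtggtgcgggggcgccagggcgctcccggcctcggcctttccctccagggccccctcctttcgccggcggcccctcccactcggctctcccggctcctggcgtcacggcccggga
PMP22, chr17:15262606-15262802, minus strand: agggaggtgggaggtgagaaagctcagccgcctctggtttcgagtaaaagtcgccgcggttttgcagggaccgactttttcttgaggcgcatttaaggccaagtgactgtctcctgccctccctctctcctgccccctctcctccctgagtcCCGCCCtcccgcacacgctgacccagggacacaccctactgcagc

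In windows of 300 bases around the start (250 before and 50 after), GC content was 44.3% for EMP1, 77.0% for EMP2, 59.3% for EMP3 and 64.3% for PMP22. EMP1 thus had the lowest of the 4, with 19.4% of 35116 RefSeq promoter windows lower still, and EMP2 had the highest, with 93.6% of windows below it. The EMP1 window held 4 CpG dinucleotides, against 33 in EMP2, 14 in EMP3 and 24 in PMP22. EMP1 was also the one with AP-1 matches: 2 of them, starting 175 and 48 bases before the start site, where 7.71% of all windows hold at least 1. These windows of EMP2, EMP3 and PMP22 held none. A GC box stood in the window of each member, 9 bases before the start in EMP1, beyond the run printed, and 45% of all windows hold 1. EMP3 held 2 overlapping TATAAA matches on opposite strands (11.5% of windows hold 1), and no member's window held the TEAD pattern GGAATG (14%) or a CArG box (1.29%). No listed motif overlapped another at EMP1. Besides these, RefSeq lists 1 further start for EMP3 and 2 for PMP22, none with an AP-1 or TEAD match. The RefSeq start site used for PMP22 lies 53 bases inside the transcript counted, and the run printed ends where that transcript begins.

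EMP1 encodes epithelial membrane protein 1, a tetraspan protein of epithelial plasma membranes. The transcript counted, from ENSG00000134531.10, lies on chromosome 12 from 13196726 to 13219941 on the plus strand of hg38, with 5 exons. EMP1 had 2898 and 2863 reads in shSMARCA4 libraries and 1229 and 1266 in controls, although the shSMARCA4 libraries were the smaller ones. Scaled, this was 100 and 104 CPM in shSMARCA4 libraries and 37.5 and 39.2 CPM in controls. Both shSMARCA4 libraries lay far above both controls, and within each group the libraries were close. The means were 102 ± 2.61 CPM in shSMARCA4 cells and 38.4 ± 1.25 CPM in controls (SD, n = 2 each). The log2 fold change was 1.41 (SE 0.0489; 95% interval 1.30 to 1.52), a 2.66-fold higher level. By this value EMP1 stood at rank 75 of 18781 genes tested, and 66 of the 74 genes ahead of it had a mean under 5 CPM. This standing follows in part from how EMP1 was chosen and is given as a description.

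**Figure D1:**
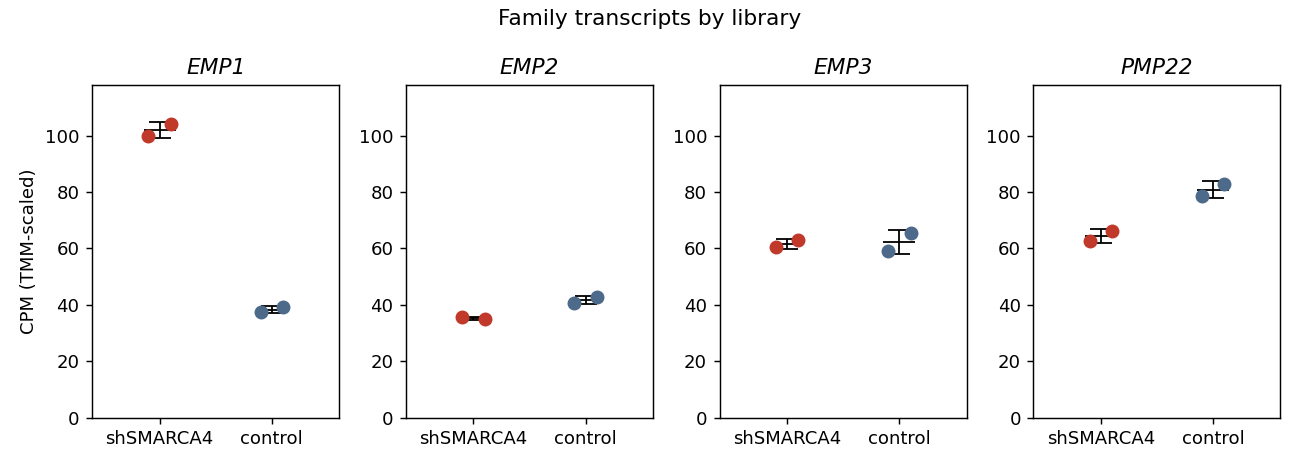
CPM (y axis, from 0) of each family member in the 2 shSMARCA4 and 2 control libraries (points), with mean and SD (bars). EMP1 sits near 100 CPM in shSMARCA4 libraries and below 40 CPM in controls, EMP2 and PMP22 lie somewhat lower in shSMARCA4 libraries, and the groups overlap for EMP3.

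PMP22, the myelin protein of the family, went the other way. It lies on chromosome 17 from 15229786 to 15262605 on the minus strand (ENSG00000109099.16). Its level was 62.7 and 66.2 CPM in shSMARCA4 libraries and 78.7 and 82.9 CPM in controls. The groups did not overlap, which held for 65.9% of all genes tested. Both shSMARCA4 libraries of PMP22 were below both controls, by more than the libraries of a group differed. The log2 fold change was -0.33 (SE 0.0502; 95% interval -0.44 to -0.21), with adjusted p = 0.00141 (edgeR, quasi-likelihood, Benjamini-Hochberg over all genes tested). PMP22 thus fell 1.25-fold. Its mean CPM in controls, not divided by transcript length, was exceeded by that of 15.9% of genes tested.

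EMP2 encodes a relative that in other cells controls the surface display of integrins and signalling through focal adhesion kinase. It lies on chromosome 16 from 10528422 to 10580598 on the minus strand (ENSG00000213853.10). EMP2 had 35.7 and 34.9 CPM in shSMARCA4 libraries and 40.6 and 42.8 CPM in controls. The groups did not overlap, as for 65.9% of all genes tested. EMP2 fell by 0.24 on the log2 scale (SE 0.0545; 95% interval -0.36 to -0.12; adjusted p = 0.00996, edgeR), 1.18-fold. The adjusted p was 0.0709 without shSMARCA4 library 2, 0.0511 with DESeq2 and 0.0587 with no filter on low counts, so the call was lost in each of these.

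EMP3, which in other cells has been tied to CD44 and TGF-beta receptor signalling, lies on chromosome 19 from 48325552 to 48330553 on the plus strand (ENSG00000142227.11). It had 60.5 and 63.0 CPM in shSMARCA4 libraries, within the 59.2 and 65.4 CPM of the controls. The log2 fold change was -0.01 (SE 0.0578) with adjusted p = 0.900 (edgeR), short of the threshold of 0.05. Its 95% interval, from -0.14 to 0.12, leaves room for a level between 0.906 and 1.09 times that of controls.

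Of the 3 relatives of EMP1, 0 rose, 2 fell and 1 did not pass, where 29.7% of all genes tested were called, 13.8% as higher and 15.8% as lower. With library totals in place of trimmed means, genes that rose made up 59.5% of all calls instead of 46.6%, and EMP2 and PMP22 still fell. EMP1 had a log2 fold change of 1.41, where those of its relatives lay between -0.33 and -0.01. This difference between members follows in part from how EMP1 was chosen and was not tested.

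**Figure D2:**
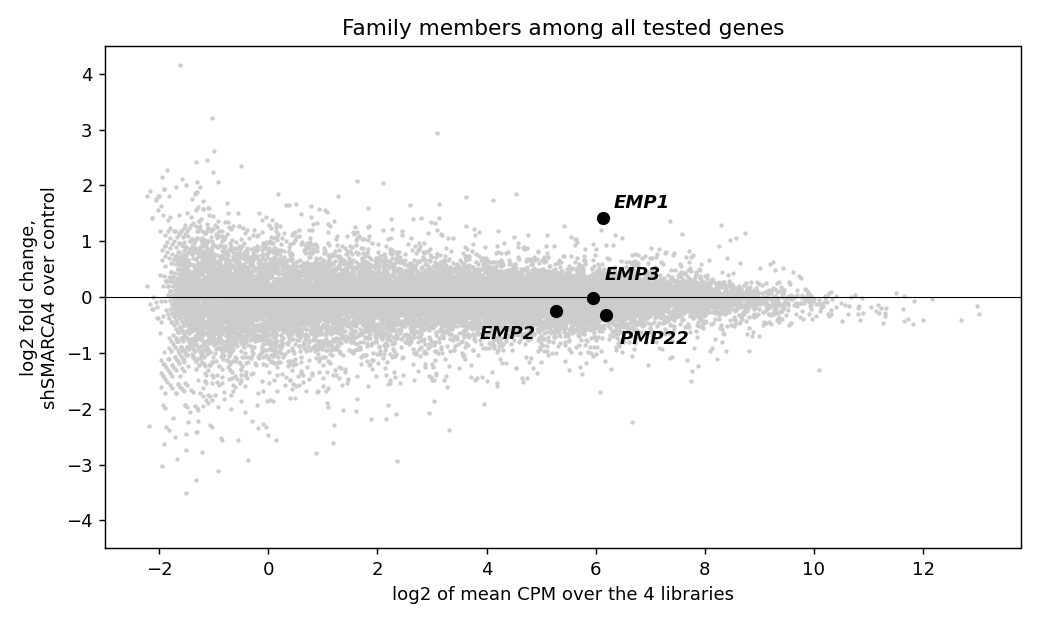
Log2 fold change of shSMARCA4 over control (y axis) against log2 of mean CPM over the 4 libraries (x axis) for 18781 tested genes (grey), with the 4 family members in black. EMP1 stands at 1.41, with 0 of 3419 genes of higher mean CPM lying above it, which follows in part from its choice. EMP2, EMP3 and PMP22 lie between -0.33 and -0.01 within the main cloud.

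Levels can be compared between genes only per transcript length. EMP3 was the most abundant member in every library on this scale, at 94.6 and 98.5 CPM per kilobase in shSMARCA4 libraries and 92.5 and 102 in controls. PMP22 followed with 30.8 and 32.5 CPM per kilobase in shSMARCA4 libraries and 38.6 and 40.7 in controls. The order of the lower pair differed between groups. EMP1 held 16.9 and 17.6 CPM per kilobase in shSMARCA4 libraries and 6.35 and 6.65 in controls. EMP2 held 7.01 and 6.86 CPM per kilobase in shSMARCA4 libraries and 7.98 and 8.41 in controls. EMP1 was thus above EMP2 in shSMARCA4 cells (level ratios 2.42 and 2.56) and below it in controls (level ratios 0.795 and 0.790). Within each group no pair of neighbours in this order overlapped between libraries.

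EMP1 made up 11.3% of the family's summed CPM per kilobase in both shSMARCA4 libraries, and 4.36% and 4.21% in controls. PMP22 made up 20.6% and 20.9% in shSMARCA4 libraries and 26.5% and 25.8% in controls. The sum itself overlapped between groups, at 149 and 155 CPM per kilobase in shSMARCA4 libraries and 145 and 158 in controls, and EMP3 made up 63.3% to 64.7% of it. Without division by length, the family summed to 259 and 268 CPM in shSMARCA4 libraries and 216 and 230 CPM in controls. This lack of overlap, found for 65.9% of single genes tested, rests on EMP1, which was chosen for its rise. EMP2 and PMP22 were lower in shSMARCA4 libraries, and EMP3 overlapped between groups. EMP3 rests on the shortest transcript, 640 bases in the table and 876 bases in GENCODE release 29. With the longer one its mean level was 70.5 CPM per kilobase in shSMARCA4 cells and 71.1 in controls, still above PMP22.

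**Figure D3:**
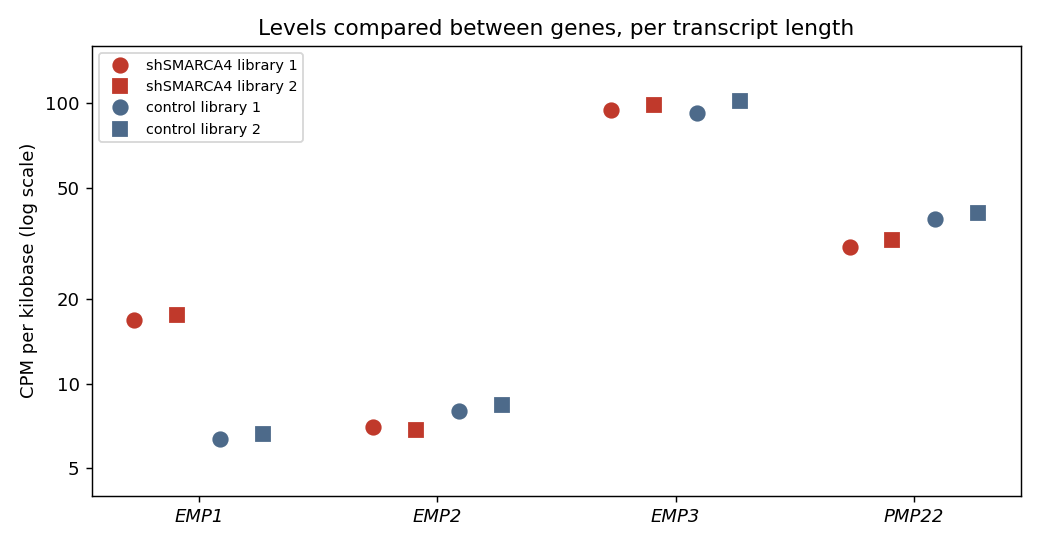
CPM per kilobase of transcript (y axis, log scale) of each member in the 2 shSMARCA4 libraries (red) and the 2 control libraries (blue). EMP3 is highest in all 4 libraries, and EMP1 lies above EMP2 in shSMARCA4 libraries and below it in controls.

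Reads were counted on both strands, so overlapping genes share them. In the transcripts counted for EMP1 and EMP3, no exon overlapped that of another gene in GENCODE release 29. In the transcript counted for EMP2, 533 exonic bases were shared with a long non-coding RNA on the opposite strand. The overlapping lncRNA in the table there (ENSG00000256013) had 170 and 152 reads in shSMARCA4 libraries and 195 and 234 in controls, against 1034 and 963, and 1332 and 1381, for EMP2. The transcript counted for PMP22 is absent from release 29. Over all exons annotated there for PMP22, 277 bases were shared with exons of another gene. The overlapping locus ENSG00000279660 fell (-0.56 ± 0.142, log2 fold change ± SE; adjusted p = 0.0162, edgeR), with 90 and 96 reads in shSMARCA4 libraries and 151 and 165 in controls. Whether reads of these loci move the EMP2 and PMP22 values was not tested.

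Neighbouring protein-coding genes gave few values. Beside EMP1, GRIN2B, a glutamate receptor subunit 317 kb to one side, had at most 3 reads in a library. The same held for ENSG00000289766, 93.2 kb to the other side. Beside EMP3, TMEM143 (-0.24 ± 0.189, log2 fold change) and the ciliary gene ODAD1 (-0.45 ± 0.772) did not pass the test. Beside EMP2, ATF7IP2 (0.15 ± 0.121) did not pass, and TEKT5 had 0 reads. Beside PMP22, HS3ST3B1, a heparan sulfate sulfotransferase 880 kb away, rose (0.35 ± 0.0808). TEKT3, 41.2 kb to the other side, had at most 2 reads in a library.

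Genes with the pattern most like each member were sought among 10878 protein-coding genes whose mean reached 5 CPM, as the Euclidean distance of log2 CPM centred on the control mean over the 4 libraries. Nearest to EMP1 were the collagen receptor subunit ITGA2 (distance 0.146), the interferon-induced IFIT2 (0.151), the hyaluronan synthase HAS2 (0.221), the ERK phosphatase DUSP6 (0.257) and SHISA2 (0.279). The mean CPM of ITGA2 was 98.4 in shSMARCA4 cells and 37.2 in controls. These values are not divided by transcript length, so its level was not compared with that of EMP1. No gene lay within 0.1 of EMP1, while 440 did so for EMP2, 513 for EMP3 and 251 for PMP22. EMP1 was chosen for its strong rise, so its lack of close neighbours follows in part from that choice. The nearest to EMP2 were PKD1, SGCB, TBL1XR1, DMPK and UBXN4, at distances from 0.00642 to 0.0234. To EMP3 they were EXD2, PSAP, BBS1, PROSER3 and IRF2BP2 (0.0170 to 0.0224). For PMP22 they were FKBP9, the transcriptional coactivator YAP1, the BAF subunit SMARCD1, ATP5IF1 and FNIP2 (0.0147 to 0.0299). These distances describe 4 libraries of 1 comparison.

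Among other genes with the claudin fold, 6 of 18 were tested, 0 rose and 2 fell, against 29.7% called over all genes tested. TMEM47, a junctional protein, fell to 26.6 and 25 CPM in shSMARCA4 libraries, against 30.5 and 30.4 CPM in controls (-0.24 ± 0.0611). The calcium channel and AMPA receptor subunit CACNG4 fell (-0.80 ± 0.221) at a low level, 1.24 and 1.52 CPM in shSMARCA4 libraries and 2.71 and 2.08 CPM in controls. PERP, a p53-induced desmosome protein, was near level, at 157 and 148 CPM in shSMARCA4 libraries and 156 and 161 CPM in controls (-0.06 ± 0.0447). CLDND1 (0.04 ± 0.0440), CACNG8 (-0.01 ± 0.197) and CACNG6 (-0.45 ± 0.309) did not pass either. The list's median log2 fold change was -0.15, against 0.00 for all genes tested. The call of TMEM47 was lost without shSMARCA4 library 2, that of CACNG4 without control 1 or shSMARCA4 library 1, and both with DESeq2 or no filter.

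Of 24 claudins, 11 were tested, 2 rose and 2 fell (29.7% of all genes tested were called), with a median of -0.03. The barrier-forming CLDN1 rose to 340 and 325 CPM in shSMARCA4 libraries, against 219 and 199 CPM in controls (0.67 ± 0.0526, log2 fold change), and CLDN12 rose by less (0.27 ± 0.0616). CLDN4 (-1.46 ± 0.294) and CLDN11 (-0.69 ± 0.2), both under 4 CPM in every library, fell. Calls were lost without shSMARCA4 library 1 for CLDN12 and CLDN11, without control 1 for CLDN11, with DESeq2 for CLDN11, and with no filter for CLDN12 and CLDN11, while DESeq2 gave CLDN4 no adjusted p. CLDN16 (0.75 ± 0.281) did not pass (adjusted p = 0.0735, edgeR), though it did without control 2 or without shSMARCA4 library 2.

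All 15 membrane and adhesion proteins linked to the family were tested: 4 rose, 7 fell and 4 did not pass (of all genes tested, 13.8% rose and 15.8% fell), with a median log2 fold change of -0.04. Both subunits of the vitronectin receptor, which EMP2 is known to help display, fell. ITGAV stood at 493 CPM in each shSMARCA4 library and at 672 and 700 CPM in controls (-0.48 ± 0.0390, log2 fold change). ITGB3 stood at 47.1 and 52.9 CPM in shSMARCA4 libraries and at 66.2 CPM in each control (-0.41 ± 0.0589). ITGB5, another of the beta partners of ITGAV, rose (0.27 ± 0.0445).

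The laminin receptor that PMP22 binds was split: its alpha subunit ITGA6 rose (0.31 ± 0.0382, log2 fold change) while its beta subunit ITGB4 fell (-0.50 ± 0.127). The hyaluronan receptor CD44 rose to 702 and 708 CPM in shSMARCA4 libraries, against 480 and 450 CPM in controls (0.60 ± 0.0425). TGFBR2, a TGF-beta receptor kinase, rose to 116 and 122 CPM in shSMARCA4 libraries, against 75.8 and 78.5 CPM in controls (0.63 ± 0.0463). P2RX7, the ATP-gated channel whose cytoplasmic tail binds all family members, fell to 3.11 and 3.59 CPM in shSMARCA4 libraries, against 4.33 and 6.14 CPM in controls (-0.64 ± 0.188).

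The lipid raft scaffold FLOT1 (-0.39 ± 0.0498, log2 fold change), the calcium-dependent membrane binder CPNE3 (-0.18 ± 0.0410) and focal adhesion kinase, PTK2 (-0.13 ± 0.0432), also fell. The integrin beta subunit ITGB1 (0.03 ± 0.0377), the kinase SRC (-0.04 ± 0.0615), the caveolar coat protein CAV1 (0.12 ± 0.0475) and the receptor EGFR (0.09 ± 0.0507) did not pass. Without shSMARCA4 library 1 the calls of PTK2, CPNE3 and P2RX7 were lost, without shSMARCA4 library 2 those of PTK2 and CPNE3, and without control 2 that of P2RX7. With no filter those of the same 3 genes and of ITGB4 were lost, with DESeq2 those of PTK2 and P2RX7, and that of PTK2 also with each other scaling, while CAV1 passed with upper-quartile factors, library totals, the replicate block or without control 1, and EGFR with library totals or without control 1.

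Factors that fold, retrieve or degrade PMP22 were near level. Of 5 tested, the endoplasmic reticulum chaperone HSPA5 rose (0.19 ± 0.0419, log2 fold change), to 719 and 723 CPM in shSMARCA4 libraries, against 653 and 615 CPM in controls, and 0 fell (13.8% and 15.8% over all genes tested). This call was lost without either shSMARCA4 library. Calnexin, CANX (-0.09 ± 0.0417), the glycoprotein folding sensor UGGT1 (0.09 ± 0.0437), the retrieval receptor RER1 (0.08 ± 0.0391) and the ubiquitin ligase SYVN1 (0.06 ± 0.0491) did not pass, though CANX did without control 2, UGGT1 with library totals or without control 1, and RER1 with library totals.

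Of 8 factors that act on PMP22 transcription in Schwann cells or form complexes with those that do, 7 were tested, 2 rose and 4 fell (13.8% and 15.8% over all genes tested), with a median of -0.27. TEAD1, which binds PMP22 enhancers in Schwann cells, fell to 207 CPM in each shSMARCA4 library, against 269 and 260 CPM in controls (-0.36 ± 0.0396, log2 fold change). TEAD3 (-0.53 ± 0.0688), TEAD2 (-0.27 ± 0.0799) and the coactivator YAP1 (-0.31 ± 0.0471) fell too, the call of TEAD2 being lost without either shSMARCA4 library, with DESeq2, with library totals or with no filter. TEAD4 (0.40 ± 0.0749) and WWTR1 (0.44 ± 0.0519), which encodes the YAP1 relative TAZ, rose. The myelin regulator EGR2 was scarce, at 1.45 and 1.12 CPM in shSMARCA4 libraries and 0.945 and 0.930 CPM in controls, and did not pass (0.46 ± 0.249). SOX10, the other Schwann cell regulator, had 1 read in each shSMARCA4 library and 0 and 3 in controls.

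**Figure D4:**
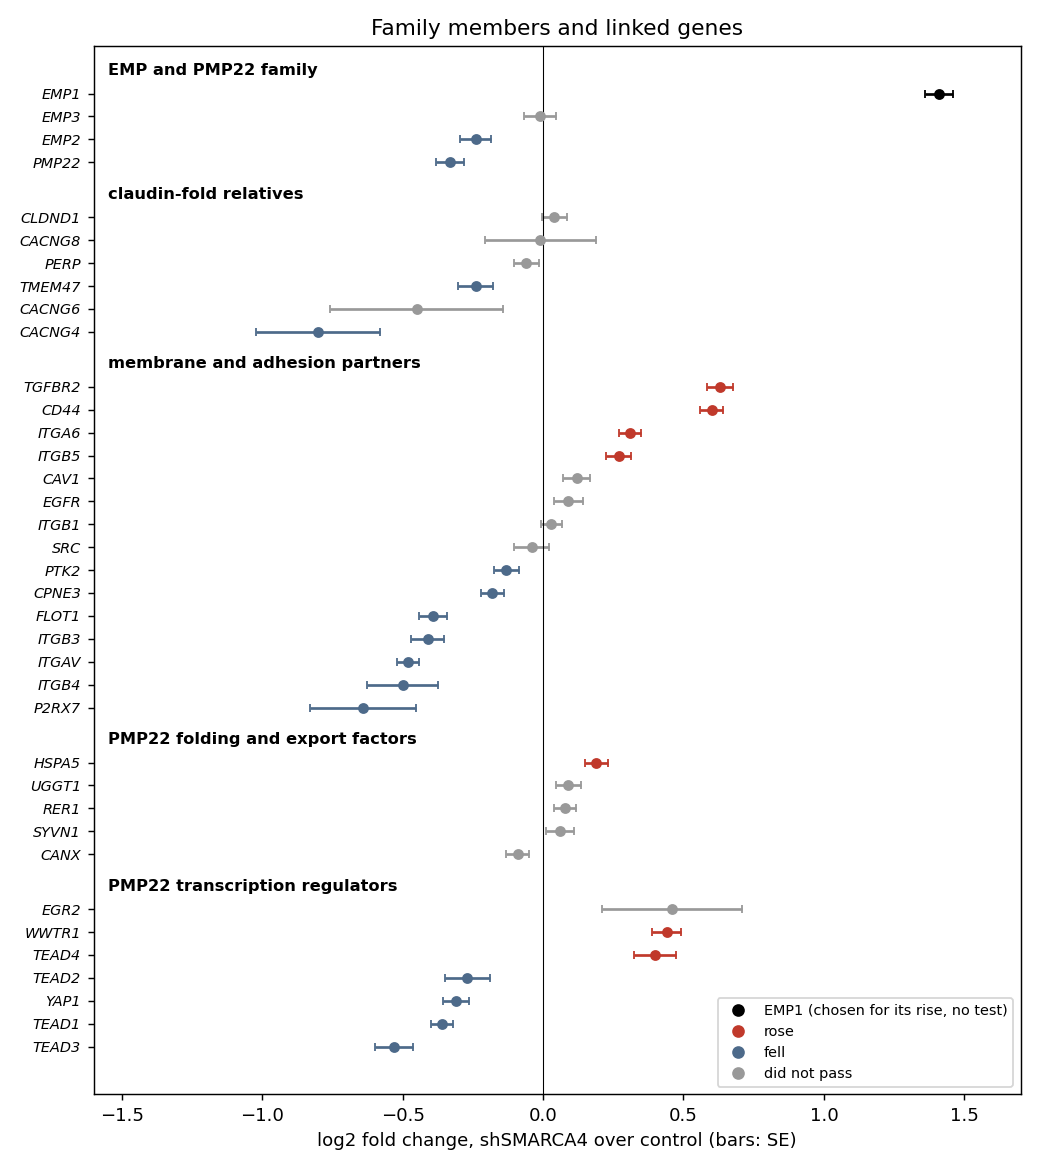
Log2 fold change of shSMARCA4 over control (x axis) with SE (bars) for tested family members, claudin-fold relatives, partners, folding factors and transcription regulators (rows). Red genes rose, blue genes fell and grey genes did not pass the test. EMP1, black, chosen for its rise and untested, stands to the right of every other gene shown.

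Of 12 Schwann cell and myelin markers, MAG, GJB1 and S100B had 0 reads in every library. The 12 summed to 114 and 117 CPM in shSMARCA4 libraries and 115 and 120 CPM in controls, most of it from CNP and MBP, which other cell types also express. Endothelial markers summed to at most 1.18 CPM in any library. Immune markers summed to 23.9 and 25.6 CPM in shSMARCA4 libraries and 22.7 and 25.4 CPM in controls, nearly all of it CD68.

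Over the 5 lists of related and partner genes, 44 of 70 were tested, 9 rose and 15 fell, with a median log2 fold change of -0.04, where 29.7% of all genes tested were called. With library totals 13 rose and 13 fell, 8 rose and 7 fell with no filter, 9 rose and 8 fell with DESeq2, and 7 rose and 9 fell without shSMARCA4 library 1. Rises made up 37.5% of the calls in these lists with trimmed means and 50% with library totals. Over all genes called, rises made up 46.6% and 59.5%.

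**Figure D5:**
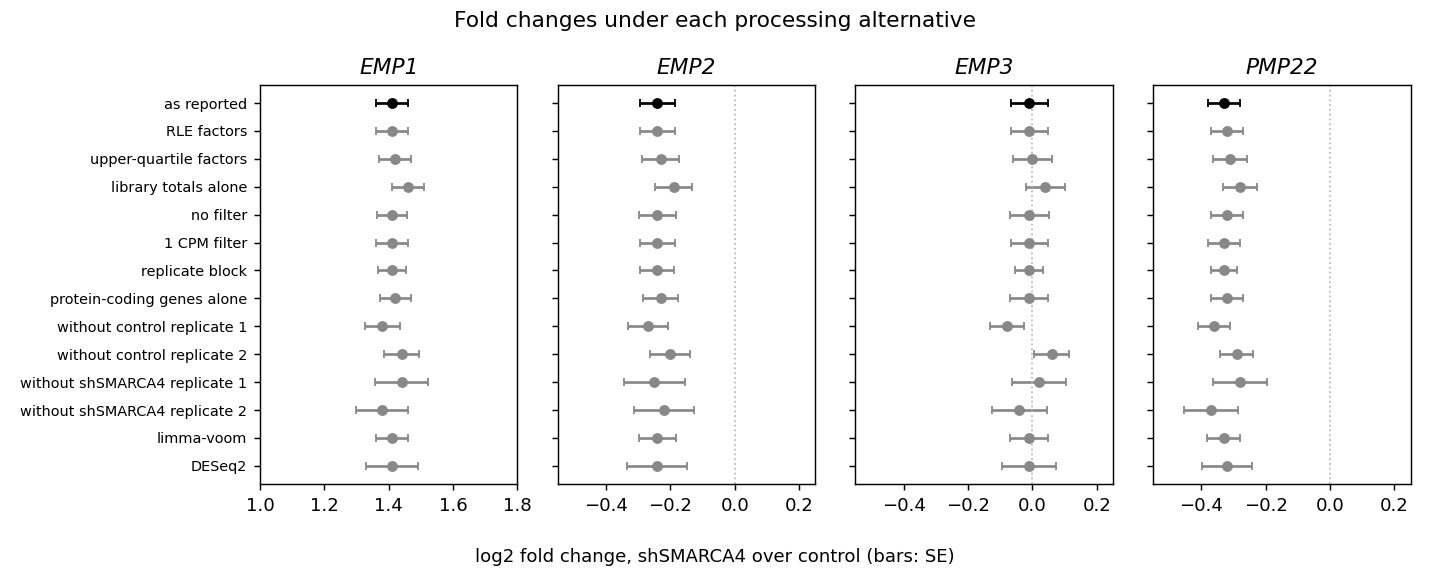
Log2 fold change of shSMARCA4 over control with SE (x axis, a separate range for EMP1) of each member as reported (black) and under 13 alternatives (grey, rows). EMP1 stays between 1.38 and 1.46 and PMP22 between -0.37 and -0.28, and EMP3 lies on both sides of 0.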

How the data were processed

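The authors deposited raw counts per gene for 4 libraries, counted by HOMER (analyzeRepeats) on hg38 exons from GENCODE release 45, on both strands, with 1 transcript per gene and no normalization, per the file header. Its command names 6 libraries, and the 4 with a value column were used. The submitters' processing notes name STAR 2.6.1c, HOMER and DESeq2 1.19.38. RNA came from silica columns and a SMARTer mRNA library kit, per the labels' protocols.

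Genes were kept by filterByExpr (count minimum of 10), leaving 18781 of 63241. Scaling used trimmed means of M values (TMM), and tests were run in edgeR 4.0.16 (R 4.3.3; glmQLFit and glmQLFTest, two-sided, group as the only term); p-values were adjusted by Benjamini-Hochberg across every gene tested, at a threshold of 0.05, and "rose" and "fell" are used only past it. CPM uses scaled library totals of tested genes; marker sums use all counts. SE is the absolute log2 fold change over the square root of F. CPM per kilobase divides by the transcript length in the table. The fit was tested on simulated data. Replicate counts differed beyond sampling noise (chi-square over degrees of freedom 1.88 in shSMARCA4, 6.33 in controls). An exact permutation test of 2 against 2 cannot go below p = 0.33, so none was run.

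Members, lists, motifs and tests were chosen with earlier results of these data known. Named genes are the members, SMARCA4, tested list members, flanking genes and the 5 genes nearest in pattern; of claudins 3 were to be named by adjusted p, and the fourth and CLDN16 were added after their values were seen. Marker genes named singly, and the overlapping loci, were picked with values seen. Some marker genes are not reported here. Alternatives covered scaling (RLE, upper quartile, library totals), filters (none, 1 CPM), DESeq2 1.42.0, limma-voom (limma 3.58.1), protein-coding genes alone, a replicate block and each library left out.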

Additional observations from a re-analysis of the deposited data

How the results depend on the processing

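EMP1 was higher under all 13 alternatives (1.38 to 1.46 on the log2 scale, highest with library totals alone at 1.46, which moves the median of all genes by 0.04). PMP22 passed the test in all 13 (-0.37 to -0.28). EMP2 stayed below 0 in all 13 and passed in 10; it did not with no filter (-0.24), with DESeq2 (-0.24) or without shSMARCA4 library 2 (-0.22), and leaving out 1 library gave -0.27 to -0.20. EMP3 passed in 0 of 13, with adjusted p from 0.254 to 0.984 by edgeR, limma or DESeq2; it turned to 0.00 with upper-quartile factors and 0.04 with library totals, and ranged from -0.08 to 0.06 with 1 library left out. The count of genes past the threshold, 5572, was 3187 with no filter, where more genes were tested, and 3555 with DESeq2; the cause of the change with DESeq2 was not tested. It ranged from 3801 to 7446 with 1 library left out. For the related and partner genes, 24 called became 15 with no filter and 16 to 25 with 1 library left out. Replicate numbers are shared by the groups, but the labels do not say that they pair samples, and deviations of same-numbered libraries correlated at 0.0668 across genes; with the replicate block the values were 1.41, -0.24, -0.01 and -0.33 for EMP1, EMP2, EMP3 and PMP22, and 6749 genes passed. The 2 libraries a group and the 963 to 2898 reads per member and library limit the precision.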
